A study of Mus musculus with 30 samples.

Results

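The 10 genes described here, Fos, Fosb, Jun, Junb, Atf3, Egr1, Nr4a1, Ier2, Dusp1 and Zfp36, are immediate early genes, and they were chosen by name from the 50686 genes counted in mouse thyroids. Poly(A) RNA of whole thyroids of C57BL/6 mice was sequenced in 30 libraries that formed 10 groups of 3. FAD4T males of 2 months stood beside wild-type (WT) males of 2 months numbered 1 to 3, and FAD4T females of 2 months beside WT females of that age. FAD4T males of 8 months stood beside WT males of 8 months, and FAD4T females of 8 months beside WT females of that age. An ageing set was formed of WT males of 18 months beside further WT males of 2 months, numbered 4 to 6. No label names this set, and it was inferred from the title numbers and the description of the design. The name FAD4T is a genotype label that the descriptions do not explain, so the alleles these mice carry are not stated here. Nothing is said of litters, days or the time of dissection, and the p-values therefore measure the spread between these mice.

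Immediate early genes are transcribed within minutes of a stimulus, from factors already present in the cell and without new protein synthesis. Growth factors, hormones, calcium and stress reach them through MAP kinases and cyclic AMP, which act on serum response factor with its ternary complex partners and on CREB. In the thyroid follicle cell, thyrotropin raises cyclic AMP and is a known inducer of several of these genes. They are also known to be induced while tissue is removed and handled, so their level in a dissected gland can hold a part made after death. Their transcripts are short-lived, and Dusp1 and Zfp36 encode proteins that shut the response down.

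The promoter windows searched here differ between members in which of these control letters they hold. Of the 10 members, 8 matched a RefSeq promoter window of 250 bases before to 50 bases after the annotated start on GRCm38.p6, and Egr1 and Ier2 did not. The letters TGACG, the core of cyclic AMP response elements, were found on either strand in 6 of the 8 windows (Fos, Fosb, Junb, Atf3, Nr4a1 and Dusp1), against 20.8% of 32851 windows of that length. The full palindrome TGACGTCA was found in 1 window, that of Dusp1, where it contains those letters, against 1.79% of all windows. A CArG box, the letters bound by serum response factor, was found on either strand in the window of Zfp36 alone among these 8, against 1.63% of all windows. The AP-1 letters TGACTCA were in none of the 8 windows, and 5.2% of all windows held them on either strand. These matches describe letters in the window and say nothing of binding. Letters farther from the start were not searched, so a member without a match may hold one outside its window. The 250 bases before the start are printed for 5 members, chosen to show the windows with several TGACG matches (Fos, Nr4a1, Dusp1), the least abundant member (Fosb) and the CArG box (Zfp36). They run 5′ to 3′ on the strand of the gene. The RefSeq start can differ from that of the annotation used for the counts. The bases before the RefSeq start of Zfp36 and of Atf3 lie inside the counted gene, and those of Dusp1 and Fosb do so in part. Capitals mark TGACG or its reverse complement CGTCA, the palindrome in Dusp1 and the CArG box in Zfp36.
Fos (chr12:85473640-85473889, plus strand): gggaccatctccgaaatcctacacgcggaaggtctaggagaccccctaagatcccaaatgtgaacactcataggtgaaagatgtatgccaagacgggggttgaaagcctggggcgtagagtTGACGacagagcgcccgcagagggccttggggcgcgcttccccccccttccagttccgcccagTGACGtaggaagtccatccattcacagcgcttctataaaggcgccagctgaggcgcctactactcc
Fosb (chr7:19310046-19310295, minus strand): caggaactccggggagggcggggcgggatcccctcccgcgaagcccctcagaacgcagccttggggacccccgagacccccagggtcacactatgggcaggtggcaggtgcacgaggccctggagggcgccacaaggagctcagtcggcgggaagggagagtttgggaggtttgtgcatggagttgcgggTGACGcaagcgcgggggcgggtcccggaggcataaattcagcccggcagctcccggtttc
Nr4a1 (chr15:101266596-101266845, plus strand): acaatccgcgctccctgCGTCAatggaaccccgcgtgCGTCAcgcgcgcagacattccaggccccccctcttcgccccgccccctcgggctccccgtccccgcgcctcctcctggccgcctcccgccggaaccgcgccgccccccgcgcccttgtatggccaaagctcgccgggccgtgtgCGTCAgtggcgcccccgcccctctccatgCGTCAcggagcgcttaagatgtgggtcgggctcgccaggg
Dusp1 (chr17:26508473-26508722, minus strand): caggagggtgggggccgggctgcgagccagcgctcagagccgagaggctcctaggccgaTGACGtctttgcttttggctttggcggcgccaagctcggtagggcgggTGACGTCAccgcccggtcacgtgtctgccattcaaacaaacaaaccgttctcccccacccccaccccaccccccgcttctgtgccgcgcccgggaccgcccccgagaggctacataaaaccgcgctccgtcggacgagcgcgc
Zfp36 (chr7:28379229-28379478, minus strand): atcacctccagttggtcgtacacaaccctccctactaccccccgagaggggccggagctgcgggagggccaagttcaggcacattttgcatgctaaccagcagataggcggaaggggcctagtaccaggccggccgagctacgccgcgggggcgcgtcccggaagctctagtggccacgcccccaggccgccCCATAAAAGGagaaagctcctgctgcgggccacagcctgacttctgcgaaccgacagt

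Depth was 14083958 to 20256049 gene counts per library. Levels are CPM, the count of a gene over the library size as scaled by TMM across all 30 libraries, and a level per kilobase divides CPM by the exon length in the count files. Tg, which encodes thyroglobulin and marks the follicle cell, was detected in all 30 libraries and took 4.64% to 27.0% of counts. Other tissue came along to a varying extent. Over the 10 skeletal muscle markers the mean log2(CPM + 1) ran between 1.38 and 11.36. Over the 9 thymocyte markers it passed 2 in 5 libraries, all FAD4T, while Rag1 was at 0 in 15 of the 30. In whole tissue, fewer cells of a type and less RNA per cell cannot be told apart.

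Each of the 10 members was detected in all libraries, and their levels per kilobase spanned a wide range. Jun stood highest with a mean of 32.1 CPM per kilobase over 30 libraries. Ier2 followed at 18.5, Dusp1 at 17.8, Junb at 14.8, Zfp36 at 14.2 and Nr4a1 at 12.8 CPM per kilobase. Fos had 8.18 and Egr1 7.39 CPM per kilobase, and Atf3 with 2.22 and Fosb with 0.563 were the lowest. The members also differed in how much mice of the same group differed. Between mice of a group, the SD of log2(CPM + 1) was 1.0 for Fosb, 0.868 for Fos and 0.850 for Nr4a1. Those spreads were larger than those of 97.7%, 97.3% and 97.2% of 12000 genes with a mean of at least 5 CPM. These genes were not matched to the members on level. Fosb and Atf3, with means of 3.52 and 4.78 CPM, lie below that cut and were ranked against genes of higher level. Dusp1, Atf3 and Egr1 lay above 95.9%, 95.6% and 93.8% of genes, and Jun, Junb and Zfp36 above 83.7%, 80.7% and 77.5%. Ier2 was unlike the rest, with an SD of 0.235 that exceeded that of 51.6% of genes.

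Among the AP-1 genes, which encode the paired leucine zipper factors that bind TGACTCA, Fos (chr12:85473890-85477273, plus strand, GRCm38) had 4.57 CPM in its lowest library, an FAD4T male of 8 months, and 63.5 in its highest, WT male 2 of 2 months. A single mouse carried the group mean in several groups. Fos read 62.3 CPM in WT male 2 of 18 months and at most 16.5 CPM in males 1 and 3, against 12.2, 43.3 and 34.1 in WT males 4 to 6 of 2 months. In WT males 1 to 3 of 2 months Fos read 13.2, 63.5 and 10.4 CPM. Fosb (chr7:19302696-19310051, minus strand), a Fos relative, ran between 0.340 and 19.9 CPM, a ratio of 58.6 between the highest and lowest libraries, and its lowest library rests on 6 counts. Both genes peaked in the same mouse. Jun (chr4:95049034-95052222, minus strand), the partner of the Fos proteins, ran between 44.6 and 191 CPM, and Junb (chr8:84974484-84978718, minus strand), a Jun relative, between 15.6 and 59.7 CPM. Atf3 (chr1:191170296-191218039, minus strand), a stress-induced factor of the ATF/CREB family, ran between 1.59 CPM in an FAD4T male of 2 months and 19.7 CPM in an 18-month WT male.

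Of the other transcription factors, Egr1 (chr18:34859823-34864984, plus strand), a zinc finger protein, ran between 8.75 and 65.6 CPM. Nr4a1 (chr15:101266846-101274792, plus strand), an orphan nuclear receptor, ran between 6.42 and 122 CPM. Ier2 (chr8:84661331-84662852, minus strand), a small nuclear protein, ran between 16.9 and 66.4 CPM. The feedback genes were Dusp1 (chr17:26505590-26508519, minus strand), a phosphatase that switches off MAP kinases, at 17.2 to 143 CPM, and Zfp36 (chr7:28376784-28380253, minus strand), which encodes tristetraprolin and speeds the decay of AU-rich mRNAs, at 33.0 to 115 CPM. The highest libraries of Egr1, Ier2 and Zfp36 were all WT male 5 of 2 months, and those of Jun, Dusp1 and Nr4a1 were all WT male 6. Counting ignored strand, and GENCODE vM21 places exons of a gene on the other strand over 232 bases of Jun, 173 of Junb, 125 of Zfp36 and 11 of Dusp1, where reads of both genes cannot be told apart.

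**Figure D1:**
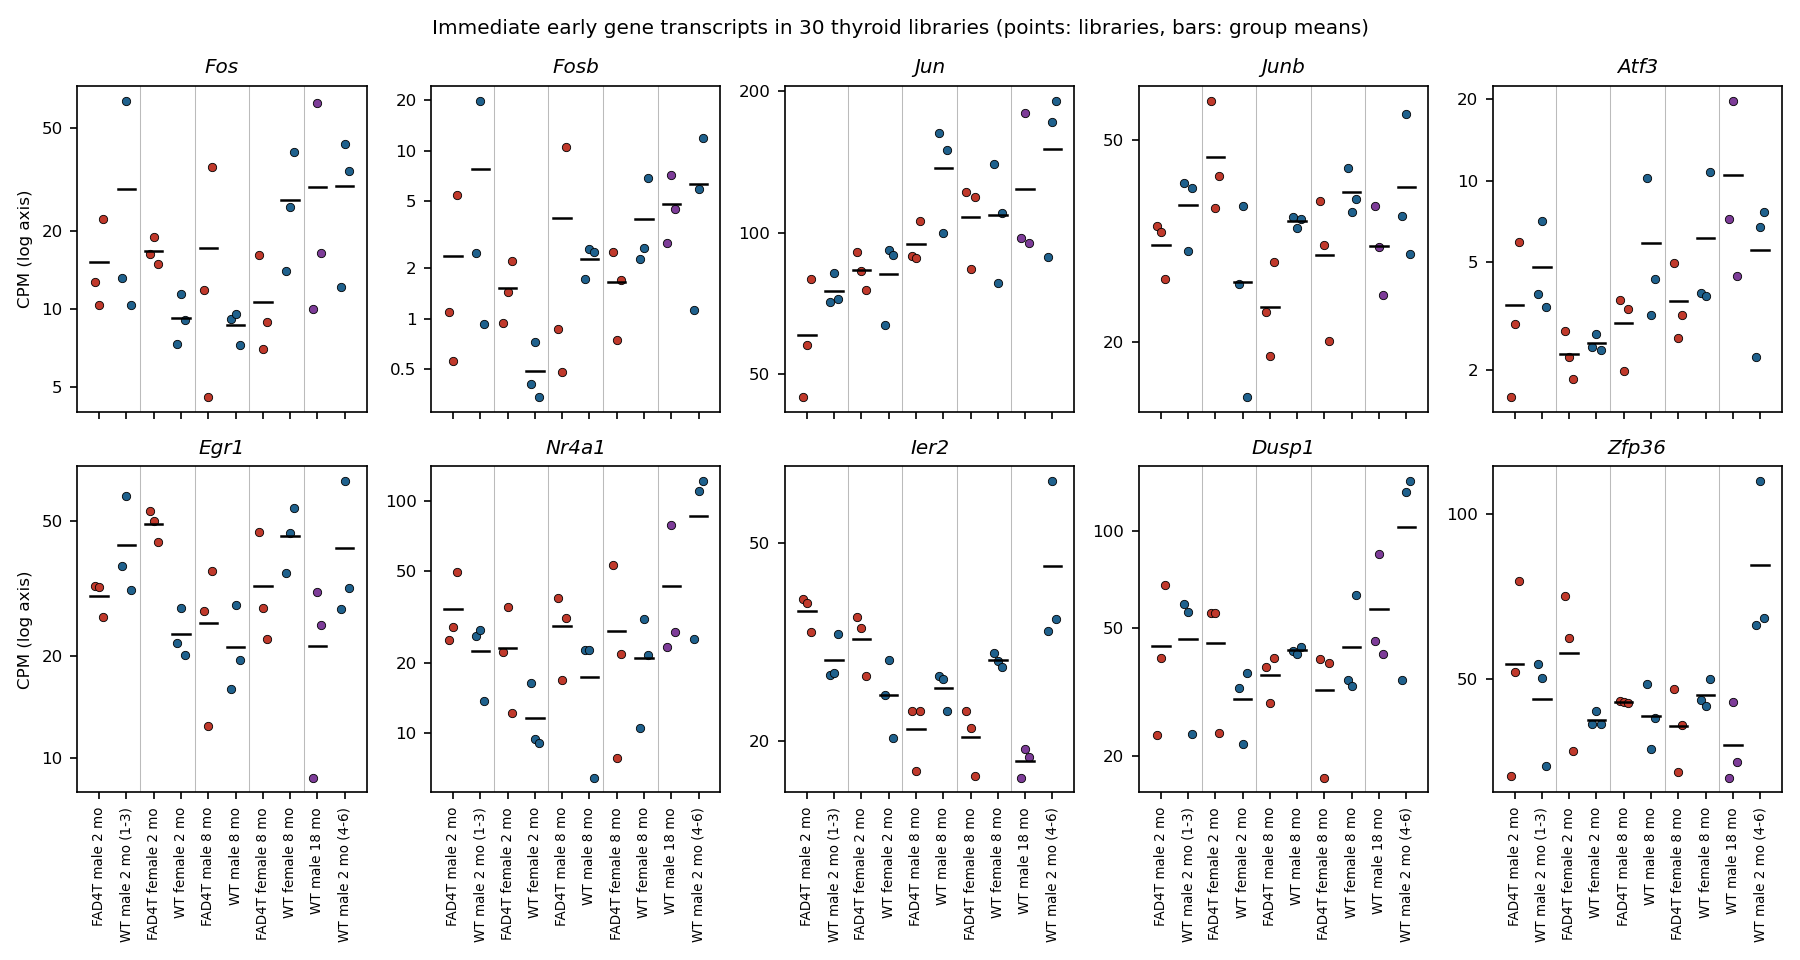
CPM (log axis) of each of the 10 immediate early genes in 30 thyroid libraries, 3 per group; points are libraries and bars are group means. Fos, Fosb and Nr4a1 spread widely within groups, while Ier2 sits at 16.9 to 19.3 CPM in the 18-month males.

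Within groups the members tended to be high or low in the same mice. After each group's mean was removed, the 45 pairs of members had a median Pearson r of 0.49 over the 30 libraries, with r between -0.10 and 0.87, and 43 of the 45 lay above 0. Permutation within groups, adjusted over the 45 pairs, gave an adjusted p under 0.05 for 24 pairs by r, for 23 by Spearman's rho and for 23 by both. The closest pair was Fos with Fosb, with r = 0.87 and rho = 0.86 (n = 30, permutation adjusted p = 0.00157 for r and 0.0018 for rho), and r was 0.87 without the 2 libraries farthest from the median of Fos. Fos with Egr1 had r = 0.78 and rho = 0.69 (n = 30, permutation adjusted p = 0.00697 and 0.011), or 0.74 without the 2 farthest libraries. The feedback genes went together too: Dusp1 and Zfp36 had r = 0.75 and rho = 0.74 (n = 30, permutation adjusted p = 0.00782 and 0.00397), or 0.73 without the 2 farthest. Dusp1 with Nr4a1 had r = 0.75 and rho = 0.71 (n = 30, permutation adjusted p = 0.00585 and 0.0063), or 0.69 without them. Junb went mainly with Ier2, at r = 0.73 and rho = 0.70 (n = 30, permutation adjusted p = 0.00785 and 0.0092), or 0.69 without the 2 farthest. Against Fos, Junb had r = 0.06 and rho = -0.03 (n = 30, permutation adjusted p = 0.83 and 0.925), or 0.17 without them. The values of a pair come from the same libraries and share their depth, scaling and tissue content. Pairs of other genes were not examined, so these counts do not show that the members go together more than other genes do.

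The members' summary level, the mean of log2(CPM + 1) over all 10, was 5.736 in WT male 5 and 5.482 in WT male 6, the highest libraries of the 30. WT male 18-month number 2 followed with 5.349, then WT male 2 of 2 months with 5.186 and WT female 3 of 8 months with 5.084. The 5 highest libraries were thus all WT and from 4 groups. The lowest was FAD4T male 2 of 8 months with 3.798. By group, the summary level averaged 5.21 ± 0.71 in WT males 4 to 6 and 4.0 ± 0.12 in WT females of 2 months, the highest and lowest of the 10 means, with the other 8 between 4.28 and 4.74 (SD, n = 3 each).

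**Figure D2:**
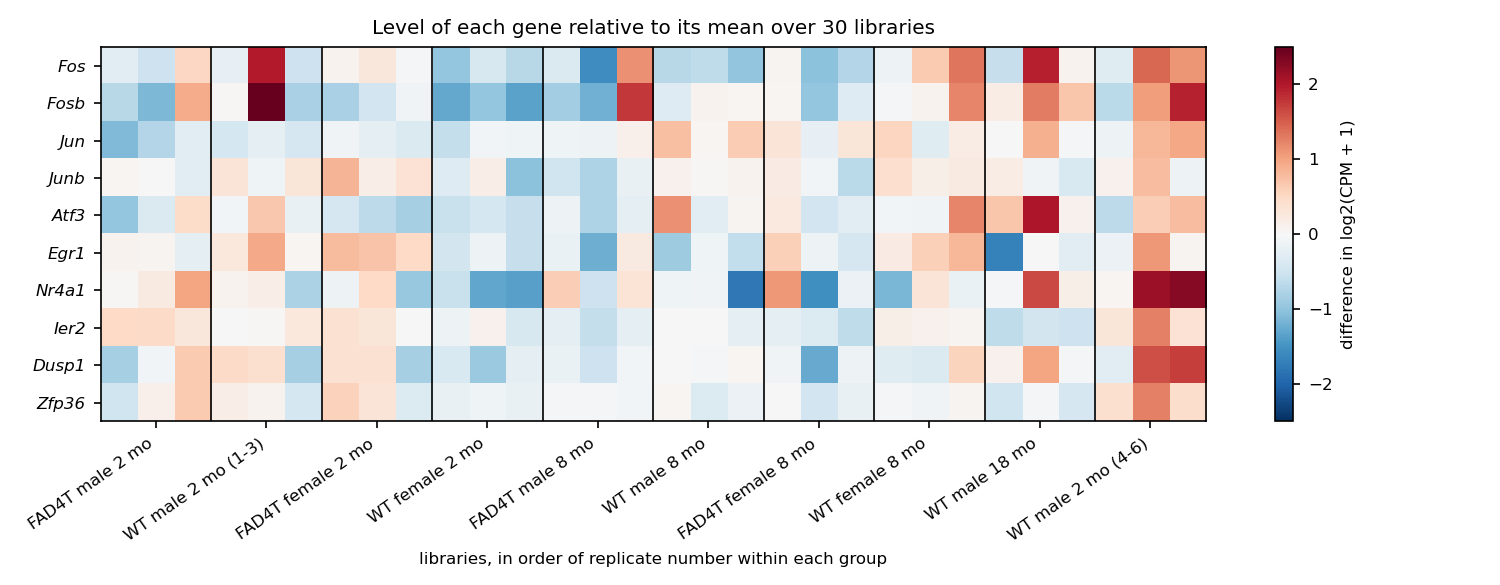
Difference in log2(CPM + 1) of each of the 10 genes (rows) in each of 30 libraries (columns, by replicate number within group) and the gene's mean over all libraries. The columns of highest summary level are WT males 5 and 6 of 2 months and WT male 2 of 18 months, at 5.736, 5.482 and 5.349.

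FAD4T and WT thyroids were compared in each sex and age to ask how the genotype relates to transcript levels. None of the 10 members passed the test in any of the 4 comparisons. Fitted over 18493 genes, edgeR's quasi-likelihood test with Benjamini-Hochberg adjustment called 0% of genes in males of 2 months, 0% in females of 2 months, 0% in males of 8 months and 0.0216% in females of 8 months. At an unadjusted p under 0.05, the members counted 1, 3, 2 and 1 in those comparisons in that order, and DESeq2 called 0 members in each. Of all 18493 genes, 14.5%, 16.7%, 1.81% and 4.66% had such a p in the same order, and DESeq2 called 102, 293, 0 and 77 genes, so 1 of 10 members in males of 2 months was close to the background. Averaged over both sexes and ages, 0 members were called by edgeR, where 0% of genes passed, and 0 by DESeq2, with 2 members at an unadjusted p under 0.05 beside 15.4% of all genes.

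The females of 2 months came nearest. Egr1 read 53.6, 50.2 and 43.4 CPM in FAD4T females of 2 months, against 21.9, 27.7 and 20.1 CPM in WT females of 2 months. The groups did not overlap, and the log2 fold change was 1.08 ± 0.33 (SE), with an adjusted p of 0.174 by edgeR's quasi-likelihood test. Junb read 59.7, 36.7 and 42.5 CPM in FAD4T females, against 26.1, 37.0 and 15.6 in WT females, and these ranges met. Its log2 fold change was 0.82 ± 0.26 with an edgeR adjusted p of 0.184. Fos read 16.3, 18.9 and 14.9 CPM in FAD4T females, against 7.33, 11.4 and 9.07 in WT females, and did not overlap, at a log2 fold change of 0.85 ± 0.66 and an edgeR adjusted p of 0.495. Fosb read 0.947, 1.45 and 2.20 CPM in FAD4T females, against 0.407, 0.725 and 0.340 in WT females, with an edgeR adjusted p of 0.469.

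Fos, Fosb and Egr1 were thus 3 of 10 members whose groups did not overlap, all with FAD4T above WT, where 9.79% of all genes had groups that did not overlap and 5.33% had FAD4T above. Over all 10 members, 9 had a log2 fold change above 0, with a median of 0.70, beside a median of -0.02 and 48.1% of values above 0 over all genes. As the members tended to vary together between mice of a group, these 10 directions are not independent. Atf3 was the member below 0, at -0.14 ± 0.51. Without FAD4T female 3, edgeR's quasi-likelihood test called Egr1 (log2 fold change 1.15, adjusted p = 0.0421) and Junb (0.86, adjusted p = 0.0476). The mean level of the thymocyte markers was 0.34 to 4.23 in FAD4T females and 0.16 to 1.47 in WT females of 2 months. FAD4T female 3 was the mouse at 0.34, so the fit without her kept only FAD4T females at 3.72 and 4.23. The part of this tissue in these values was not tested. Liver markers, such as Alb, differed between these groups as well, with a mean level of 1.12 to 1.95 in FAD4T females and 1.37 to 7.40 in WT females, where 1 WT female held the highest liver level of the 30 libraries. All 10 liver markers had an unadjusted p under 0.05 and a log2 fold change below 0, with a median of -6.62, and their part was not tested.

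In males of 2 months, Ier2 was the member whose groups did not overlap, where 12.2% of all genes had such groups and 6.11% had FAD4T above. It read 38.6, 37.8 and 33.1 CPM in FAD4T males, against 27.1, 27.4 and 32.8 CPM in WT males 1 to 3, with a log2 fold change of 0.33 ± 0.15 and an edgeR adjusted p of 0.343. Against WT males 4 to 6, which read 33.3, 66.4 and 35.1 CPM, the log2 fold change of Ier2 was -0.30. Jun read 44.6, 57.5 and 79.6 CPM in FAD4T males, against 71.0, 81.9 and 72.2 in WT males 1 to 3 and 88.6, 172 and 191 in WT males 4 to 6. Its log2 fold change was -0.30 ± 0.23 with an edgeR adjusted p of 0.47 against numbers 1 to 3. Set against numbers 4 to 6, Jun was lower in FAD4T males by a log2 fold change of -1.31 ± 0.28, with an edgeR adjusted p of 0.00188, and 25.3% of all genes passed that comparison.

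At 8 months Ier2 in females, and Junb and Dusp1 in males, were lower in every FAD4T library than in any WT library, without passing the test. Ier2 read 23.0, 21.2 and 17.0 CPM in FAD4T females of 8 months, against 30.1, 29.0 and 28.2 CPM in WT females of 8 months. Groups were apart in 12.9% of all genes, in 7.24% with FAD4T below, and the log2 fold change was -0.51 ± 0.15, with an unadjusted edgeR p of 0.00363 that adjustment over all genes took to 1. In the same females 1 of the 10 members, Nr4a1, had a log2 fold change above 0 (0.39 ± 0.60), and the median of the 10 was -0.46. Over all genes the median was -0.01 and 47.9% were above 0. The 10 directions are not independent, since the members tended to vary together. The mean level of the skeletal muscle markers was 1.47 to 2.03 in FAD4T females and 5.44 to 8.75 in WT females of 8 months. All 10 of those markers had an unadjusted p under 0.05, with a median log2 fold change of -7.31, and their part in the members' values was not tested. Among males of 8 months, Junb read 22.9, 18.8 and 28.8 CPM in FAD4T thyroids, against 35.3, 33.6 and 34.9 in WT thyroids. Dusp1 read 38.0, 29.4 and 40.3 CPM in those FAD4T males and 42.5, 41.7 and 43.8 in WT males. Both were without overlap, where 10.8% of genes were and 6.43% had FAD4T below, and their log2 fold changes were -0.54 ± 0.26 and -0.23 ± 0.42, each with an edgeR adjusted p of 1.

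Whether the genotype difference itself changed with sex or age was tested by 4 interaction terms. No member was called in any of the 4 by edgeR, where 0% of genes passed in each, or by DESeq2. Between 8 and 2 months in females, the FAD4T difference of Ier2 differed by a log2 value of -0.88 ± 0.22, with an edgeR adjusted p of 0.564, and 4 members had an unadjusted p under 0.05 beside 8.22% of all genes. All 10 of these interaction values were below 0, with a median of -0.95, beside a median of -0.00505 and 49.6% of values above 0 over all genes. The members tended to vary together within groups, so these 10 values are not independent of each other. Between males and females at 2 months, those of Egr1 and Junb were -1.57 ± 0.46 and -1.08 ± 0.36 on the log2 scale, each with an edgeR adjusted p of 1. All 10 values of this interaction were below 0 as well, where 54.1% of all genes were above 0. Both interactions include the same WT females of 2 months, whose summary level of 4.0 ± 0.12 (SD) was the lowest of the groups.

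**Figure D3:**
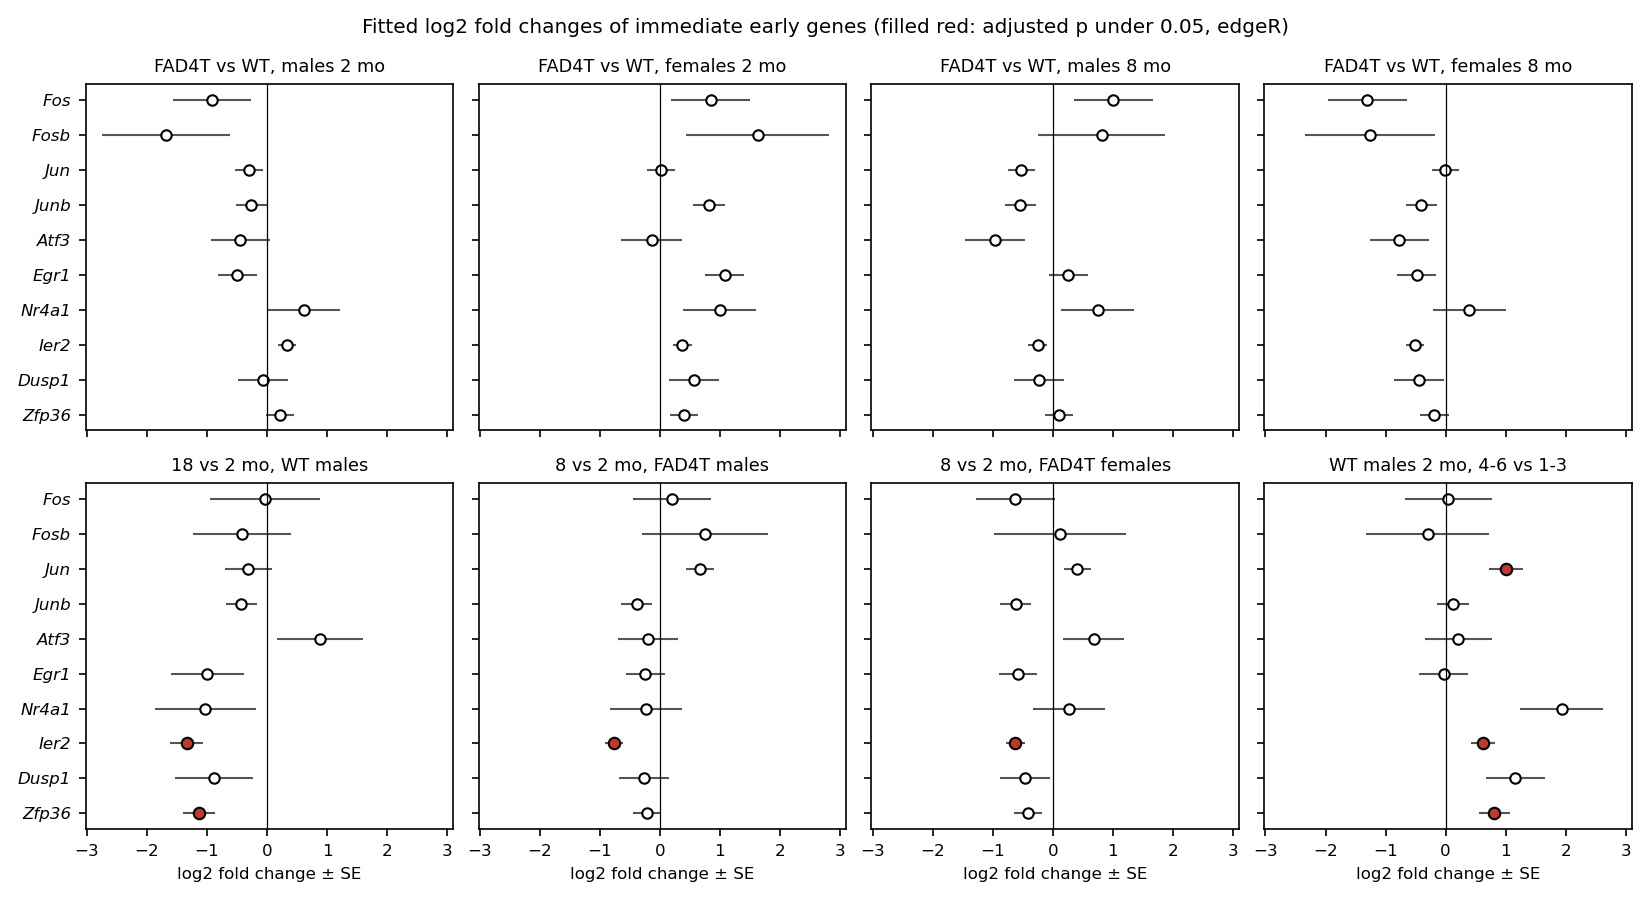
Log2 fold change (± SE, edgeR) of the 10 immediate early genes in 8 comparisons; filled red points have an adjusted p under 0.05. No member is filled in the 4 FAD4T comparisons, Ier2 is filled in 4 of the panels, and Zfp36 in 2.

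The ageing set asked how an old gland differs from a young one. Ier2 and Zfp36 fell in the WT males of 18 months, and the other 8 members did not pass the test. Ier2 read 16.9, 19.3 and 18.6 CPM at 18 months, against 33.3, 66.4 and 35.1 CPM in WT males 4 to 6 of 2 months. The groups were well apart, and Ier2 fell by 1.33 on the log2 scale (SE 0.27, adjusted p = 0.00831 by edgeR's quasi-likelihood test over 16283 genes). Zfp36 read 33.0, 45.4 and 35.3 CPM at 18 months, against 62.7, 115 and 64.7 CPM at 2 months. It fell by 1.13 on the log2 scale (SE 0.27, edgeR adjusted p = 0.0167). Of all genes 35.9% passed in this comparison and 18.8% passed as lower, so 2 of 10 members lower lay close to the background. Ier2 and Zfp36 were also the members without overlap, as 51.1% of all genes were and 24.8% with the 18-month males below.

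The values of the other 8 members were as follows. Dusp1 read 45.8, 85.1 and 41.5 CPM at 18 months, against 34.6, 132 and 143 CPM at 2 months, with a log2 fold change of -0.88 ± 0.65 and an edgeR adjusted p of 0.358. Nr4a1 read 23.6, 78.8 and 27.4 CPM at 18 months, against 25.4, 111 and 122 at 2 months (log2 fold change -1.03 ± 0.84, edgeR adjusted p = 0.405). Both ranges overlapped, with a high mouse at 18 months and a low mouse at 2 months. Egr1 read 8.75, 30.8 and 24.7 CPM at 18 months, against 27.5, 65.6 and 31.7 at 2 months (log2 fold change -0.99 ± 0.60, edgeR adjusted p = 0.265). Atf3 was the member with a value above 0, at 7.22, 19.7 and 4.45 CPM against 2.24, 6.75 and 7.67 (log2 fold change 0.89 ± 0.72, edgeR adjusted p = 0.382). For Fos, Fosb, Jun and Junb the log2 fold changes lay between -0.43 and -0.04, with edgeR adjusted p between 0.235 and 0.981.

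The choice of young males mattered for Zfp36 and less for Ier2. Set against WT males 1 to 3 of 2 months, Ier2 was still lower at 18 months, by a log2 fold change of -0.67 ± 0.20 (edgeR adjusted p = 0.0312), where 9.45% of genes passed. Zfp36 had -0.28 ± 0.25 there with an edgeR adjusted p of 0.541. With all 6 young WT males, Ier2 had -0.98 ± 0.18 (edgeR adjusted p = 0.000366) and Zfp36 -0.69 ± 0.23 (edgeR adjusted p = 0.0298), where 24% of genes passed. Zfp36 also missed the threshold without 18-month male 1 (edgeR adjusted p = 0.0616) or male 3 (0.0649), and Dusp1 was called without 2-month male 4 (-1.30, edgeR adjusted p = 0.0411). The mean level of the skeletal muscle markers was 8.26 to 10.84 at 18 months and 8.65 to 11.36 in WT males 4 to 6, with 0 of the 10 markers called. Of 7 adipocyte markers 4 were called lower, and their mean level was 3.63 to 5.35 at 18 months and 6.81 to 7.05 at 2 months. Also called lower were 4 of 8 endothelial markers (median log2 fold change -0.56) and 4 of the 5 liver markers tested (-1.86). Of 7 macrophage markers 2 were called higher, and of 10 follicle cell markers 2 were called higher and 1 lower. Beside these counts, 35.9% of all genes passed against WT males 4 to 6, and 18.8% passed as lower. The part of these tissues in the members' values was not tested.

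The WT males of 2 months numbered 4 to 6 and 1 to 3 share strain, genotype, sex and age, and the labels tell them apart by number alone. Jun, Ier2 and Zfp36 were higher in numbers 4 to 6. Jun read 88.6, 172 and 191 CPM in numbers 4 to 6, against 71.0, 81.9 and 72.2 CPM in numbers 1 to 3, and rose by 1.0 on the log2 scale (SE 0.28, adjusted p = 0.0127 by edgeR's quasi-likelihood test over 18799 genes). Zfp36 rose by 0.81 (SE 0.25, edgeR adjusted p = 0.0242) and Ier2 by 0.62 (SE 0.20, edgeR adjusted p = 0.0236) on that scale. Beside these 3 of 10 members, 21.6% of all genes passed and 10.2% passed as higher in numbers 4 to 6. The same 3 were the members whose sets did not overlap, as 38.8% of all genes did not, 18.8% of all genes with numbers 4 to 6 above.

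Nr4a1 and Dusp1 had the larger differences but also the wider spread. Nr4a1 averaged 86.3 ± 53.0 CPM in numbers 4 to 6 and 22.6 ± 7.66 CPM in numbers 1 to 3 (SD, n = 3 each), with a log2 fold change of 1.93 ± 0.69 and an edgeR adjusted p of 0.0504. Dusp1 averaged 103 ± 59.9 CPM in numbers 4 to 6 and 46.4 ± 19.9 CPM in numbers 1 to 3 (log2 fold change 1.16 ± 0.49, edgeR adjusted p = 0.0961). Fos, Fosb, Junb, Egr1 and Atf3 had log2 fold changes between -0.30 and 0.21. Number 4 read 25.4 CPM of Nr4a1 and 34.6 CPM of Dusp1, inside the range of numbers 1 to 3, while numbers 5 and 6 read 111 and 122 CPM of Nr4a1 and 132 and 143 CPM of Dusp1. By edgeR, 0 members were called without number 5 and 5 without number 4. Ier2 missed the threshold without number 1 or 2, Zfp36 without number 3 and Jun without number 6. The mean level of the skeletal muscle markers was 8.65 to 11.36 in numbers 4 to 6 and 1.38 to 8.02 in numbers 1 to 3, with 1 of 10 called higher. Of 7 adipocyte markers 4 were called higher, of 7 macrophage markers 3 higher and 1 lower, and of 5 fibroblast markers 2 lower, where 21.6% of all genes passed. The part of these tissues in the members' difference was not tested.

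Between 8 and 2 months, Ier2 fell in FAD4T thyroids of both sexes. In FAD4T males Ier2 read 23.0, 17.4 and 23.0 CPM at 8 months, against 38.6, 37.8 and 33.1 CPM at 2 months. It fell by 0.76 on the log2 scale (SE 0.15, adjusted p = 0.0235 by edgeR's quasi-likelihood test), where 0.708% of genes were called lower and 1.57% in either direction. In FAD4T females Ier2 read 23.0, 21.2 and 17.0 CPM at 8 months, against 35.4, 33.7 and 27.0 CPM at 2 months. Here it fell by 0.62 (SE 0.15, edgeR adjusted p = 0.0246), where 5.98% of genes were called lower and 10.1% in either direction. Neither pair of groups overlapped, as was so for 32.2% of genes in males and 30.9% in females, 16.2% with the 8-month females below. Jun was the other member without overlap in FAD4T males, at 89.2, 88.2 and 106 CPM at 8 months, against 44.6, 57.5 and 79.6 CPM at 2 months (log2 fold change 0.66 ± 0.23, edgeR adjusted p = 0.09). The 2-month groups held 4 of the 5 libraries of high thymocyte level. Without those 5 libraries, which leaves 1 FAD4T male and 1 FAD4T female of 2 months, the log2 fold change of Ier2 was -0.94 in males (edgeR adjusted p = 0.559) and -0.41 in females (edgeR adjusted p = 1), and neither passed. With 1 library left out, Ier2 passed in males without FAD4T male 1 of 2 months (edgeR adjusted p = 0.0187) and in females without FAD4T female 3 of 2 months (0.00393), and missed the threshold in the other 5 fits of each. Those left-out mice had thymocyte levels of 0.478 and 0.337. The FAD4T mice of 2 months kept in these fits were at 4.947 and 2.945 in males and at 3.718 and 4.228 in females.

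In WT thyroids no member was called between 8 and 2 months. Of all genes 0.692% passed in WT males and 0.254% in WT females by edgeR's quasi-likelihood test. Among the members, 3 in males and 5 in females had an unadjusted p under 0.05, and DESeq2 called 1 in males and 0 in females. Over all genes, 11.7% in males and 8.55% in females had such a p, and DESeq2 called 2.64% and 1.44%. Jun read 163, 100 and 150 CPM in WT males of 8 months, against 71.0, 81.9 and 72.2 CPM in WT males 1 to 3 of 2 months. These did not overlap, and the log2 fold change was 0.89 ± 0.23 with an edgeR adjusted p of 0.0849 and a DESeq2 adjusted p of 0.0124. Fos read 9.18, 9.53 and 7.29 CPM in WT males of 8 months, against 13.2, 63.5 and 10.4 at 2 months, with a log2 fold change of -1.72 ± 0.67 (edgeR adjusted p = 0.275) that was -0.44 without the mouse at 63.5 CPM. With Fos, Jun, Egr1 and Ier2, 4 members did not overlap in WT males, as 21.2% of all genes did not.

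In WT females all 10 members had a log2 fold change above 0 between 8 and 2 months, with a median of 0.74. Over all genes the median was -0.00257 and 49.6% were above 0. These 10 directions are not independent, since the members tended to vary together within groups. Fosb read 2.26, 2.63 and 6.92 CPM in WT females of 8 months, against 0.407, 0.725 and 0.340 CPM at 2 months, with a log2 fold change of 3.01 ± 1.19 and an edgeR adjusted p of 0.433. Egr1 read 35.1, 46.1 and 54.5 CPM at 8 months, against 21.9, 27.7 and 20.1 at 2 months (log2 fold change 0.98 ± 0.33, edgeR adjusted p = 0.259). Fos, Fosb, Egr1, Atf3 and Zfp36 did not overlap, 5 of 10 members, all above at 8 months, beside 12.4% of all genes and 5.3% above. The WT females of 2 months, the lowest group of the 10 by summary level, are the same mice that the FAD4T females of 2 months were set against. The comparison of the sexes in WT mice of 2 months used them as well.

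Sex made no called difference in WT thyroids. By edgeR's quasi-likelihood test 0.0757% of genes passed at 2 months and 0.270% at 8 months, with 3 and 2 members at an unadjusted p under 0.05, and DESeq2 called 1 member at 2 months and 0 at 8 months. Over all genes 6.69% at 2 months and 5.09% at 8 months had an unadjusted p under 0.05, and DESeq2 called 1.47% and 0.519%. Fosb averaged 7.77 ± 10.6 CPM in WT males and 0.491 ± 0.206 CPM in WT females of 2 months (SD, n = 3 each), with a log2 fold change of 3.95 ± 1.22, an edgeR adjusted p of 0.22 and a DESeq2 adjusted p of 0.00767. Without the WT male at 19.9 CPM its log2 fold change was 1.79 (edgeR adjusted p = 0.951). At 8 months Egr1 averaged 21.2 ± 6.27 CPM in WT males and 45.2 ± 9.74 CPM in WT females, with a log2 fold change of -1.10 ± 0.33 and an edgeR adjusted p of 0.337. The males were above the females without overlap in Fosb, Egr1 and Atf3 at 2 months, where 7.89% of genes did not overlap and 3.46% had males above. At 8 months they were below them without overlap in Fos, Junb, Egr1 and Ier2, where 12.4% of genes did not overlap and 5.56% had males below.

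Of 31 further early response genes listed beside the members, 29 could be tested in the FAD4T comparisons and 28 in the ageing set. By edgeR's quasi-likelihood test 0 passed in each of the 4 FAD4T comparisons, with 3, 7, 8 and 3 at an unadjusted p under 0.05 in males and females of 2 months and males and females of 8 months, beside 14.5%, 16.7%, 1.81% and 4.66% of all genes. Between 18 and 2 months, 3 rose and 8 fell of the 28, a total of 11 that lay close to the 35.9% of all genes called, with a median log2 fold change of -0.08 beside -0.01 over all genes. Klf2, an endothelial zinc finger factor, averaged 24.3 ± 2.01 CPM at 18 months and 60.9 ± 3.58 CPM in WT males 4 to 6, and fell by 1.36 (edgeR adjusted p = 0.000786). Endothelial markers, 4 of 8 of which were called lower, had a mean level of 5.71 to 6.17 at 18 months and 6.31 to 6.56 at 2 months, and their part in the value of Klf2 was not tested. Gadd45b, a stress sensor that binds MAP kinase kinases, averaged 12.7 ± 1.65 CPM at 18 months and 31.1 ± 1.72 CPM at 2 months, and fell by 1.33 (edgeR adjusted p = 0.00112). Nr4a3, the sister of Nr4a1, went the other way with 13.7 ± 6.48 CPM at 18 months and 2.51 ± 0.919 CPM at 2 months, and rose by 2.41 (edgeR adjusted p = 0.0034). Csrnp1 fell by 1.44 (edgeR adjusted p = 0.00203).

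Between FAD4T thyroids of 8 and 2 months, Socs3, an inhibitor of cytokine signalling, fell in both sexes as Ier2 did. It averaged 6.85 ± 1.11 CPM at 8 months and 15.5 ± 1.64 CPM at 2 months in males, and fell by 1.15 (edgeR adjusted p = 0.0302). In females it averaged 10.7 ± 1.06 CPM at 8 months and 20.6 ± 5.35 CPM at 2 months, and fell by 0.92 on the log2 scale (edgeR adjusted p = 0.0298). Of the 29 listed genes 1 fell in males and 3 fell in females, beside 0.708% and 5.98% of all genes called lower. The other females' genes were Gadd45b and Nfkbiz. Thymocyte markers had a mean level of 0.48 to 4.95 in FAD4T males of 2 months and 0.21 to 2.91 at 8 months. In FAD4T females their level was 0.34 to 4.23 at 2 months and 0.26 to 0.36 at 8 months. The part of this tissue in these falls was not tested. In WT males 4 to 6 against 1 to 3, 4 rose and 1 fell, a total of 5 of 29 beside 21.6% of all genes. Btg2, an antiproliferative gene, averaged 79.5 ± 25.2 CPM in numbers 4 to 6 and 43.2 ± 7.73 CPM in numbers 1 to 3 (log2 fold change 0.88, edgeR adjusted p = 0.0059), while Klf10 fell by 1.10 (edgeR adjusted p = 0.000349).

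Lists of other early responses were set beside the members because dissection can induce several at once. Among 9 MAP kinase feedback genes other than Dusp1, 0 rose and 1 fell between 18 and 2 months, Spry2, by 0.48 (edgeR adjusted p = 0.0388). In WT males 4 to 6 against 1 to 3, 2 of these 9 fell, Dusp6 by 0.86 (edgeR adjusted p = 0.000174) and Spred1 by 0.69 (edgeR adjusted p = 0.00664), where Dusp1 had a value above 0. Of 18 upstream kinases and factors, 4 rose and 3 fell between 18 and 2 months, close to the 35.9% of all genes called. Creb1, which encodes CREB, was among those that rose, by 0.64 (edgeR adjusted p = 0.00449). Creb1 fell by 0.73 in numbers 4 to 6 against 1 to 3 (edgeR adjusted p = 0.00012), where 3 of the 18 rose and 3 fell. Of all genes 21.6% were called between those sets.

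Of 11 heat shock genes, 5 rose and 0 fell between 18 and 2 months: Hsp90aa1 averaged 524 ± 159 CPM at 18 months and 183 ± 20.7 CPM at 2 months and rose by 1.48 (edgeR adjusted p = 0.00261), where Ier2 and Zfp36 fell. Beside those 5 of 11 stood 35.9% of all genes called. In FAD4T females of 8 against 2 months 4 of the 11 rose, where 10.1% of all genes were called, and in WT males 4 to 6 against 1 to 3, 3 rose and 2 fell, where 21.6% were. Between 18 and 2 months, 0 of 8 hypoxia genes rose and 1 fell, Bnip3, by 0.78 (edgeR adjusted p = 0.00427). Of 6 early inflammatory genes tested between 18 and 2 months, 2 rose and 1 fell, and Ccl2, a monocyte chemokine, rose by 3.08 (edgeR adjusted p = 0.00222). Beside both counts stood 35.9% of all genes called. Glucocorticoid-responsive genes numbered 7, of which 3 fell between 18 and 2 months and 4 rose in WT males 4 to 6 against 1 to 3, where 18.8% of all genes were called lower and 10.2% higher in those comparisons in that order. Tsc22d3, which encodes GILZ, averaged 96.8 ± 30.5 CPM at 18 months and 254 ± 17.3 CPM at 2 months and fell by 1.42 (edgeR adjusted p = 0.00272). Fkbp5, a co-chaperone of the glucocorticoid receptor, averaged 122 ± 37.3 CPM in numbers 4 to 6 and 37.3 ± 0.712 CPM in numbers 1 to 3 and rose by 1.71 (edgeR adjusted p = 0.000909).

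Clock genes also differed between the 18-month males and their young controls, with 2 of 10 higher and 7 lower beside 35.9% of all genes called. Bmal1 averaged 36.2 ± 5.65 CPM at 18 months and 3.23 ± 1.04 CPM at 2 months and rose by 3.44 on the log2 scale (edgeR adjusted p = 0.000706). Dbp, an output gene of the clock in the opposite phase, averaged 23.7 ± 12 CPM at 18 months and 245 ± 41.5 CPM at 2 months and fell by 3.41 (edgeR adjusted p = 0.00248). The time of dissection is not given, so age and time of day cannot be told apart in the comparison where Ier2 and Zfp36 fell. In WT males 4 to 6 against 1 to 3, where 21.6% of all genes passed, Nr1d2 was the 1 clock gene of 10 that passed. It fell by 0.64 (edgeR adjusted p = 0.0108).

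Across mice within groups, no list or tissue level followed the members' summary level past the threshold. The 25 relations were tested by permutation within groups and adjusted together. The largest was that with the 7 glucocorticoid-responsive genes, at r = 0.51 and rho = 0.48 over 30 libraries (permutation p = 0.028 and 0.043, adjusted p = 0.35 and 0.358), and r was 0.46 without the 2 libraries farthest from the median. The further early genes had r = 0.43 and rho = 0.44 (n = 30, permutation p = 0.0279 and 0.0351, adjusted p = 0.35 and 0.358), or 0.38 without the 2 farthest. Heat shock genes had r = 0.24 and rho = 0.18 (n = 30, permutation adjusted p = 0.795 and 0.957), or 0.11. Hypoxia genes had r = 0.02 and rho = 0.06 (n = 30, permutation adjusted p = 0.97 and 0.957), or -0.01. The thymocyte markers had r = 0.27 and rho = 0.42 (n = 30, permutation p = 0.173 and 0.0404, adjusted p = 0.795 and 0.358), or 0.17 without the 2 farthest. For the skeletal muscle markers r was 0.17 and rho 0.19 (n = 30, permutation adjusted p = 0.795 and 0.957), or 0.09, and for the share of counts in Tg r was 0.01 and rho -0.05 (n = 30, permutation adjusted p = 0.97 and 0.957), or 0.08.

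**Figure D4:**
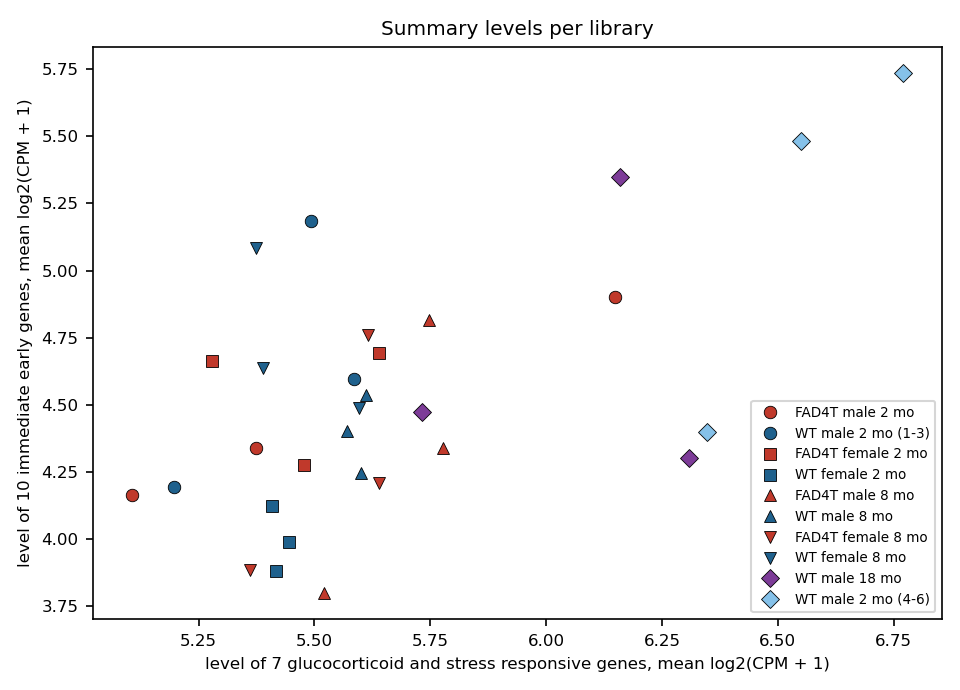
Summary level of the 10 immediate early genes (mean log2(CPM + 1), vertical) against that of 7 glucocorticoid-responsive genes (horizontal) in each of 30 libraries, by group. WT males 5 and 6 of 2 months stand highest on both axes, at 5.736 and 5.482 for the members, while WT male 4 and the 18-month male 1 are high on the horizontal axis alone.

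The genes outside the list whose pattern was most like the members' mean were sought among 11515 genes of at least 5 CPM on average, by Pearson r over the 30 libraries after group means were removed. The closest were Cdkal1 (r = 0.74), Apold1 (0.72), Pdk4 (0.69), Mtmr10 (0.67) and Eif4g3 (0.66), followed by Cog4 (0.65), Tlk2 (0.64), Nrd1 (0.64), Tsc22d2 (0.63) and Adamts1 (0.63). None of these 10 was on a list used here. Of the 31 further early genes the nearest was Btg2, with r = 0.62 at rank 11, and then Ccn1, a matricellular gene, with 0.55 at rank 26. These values describe likeness over the same libraries, whose depth and scaling all genes share. The 10 genes are the top of a ranking of 11515, and no chance level was set for their r.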

How the data were processed

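The deposited files hold raw counts, as read pairs on each gene, of 30 thyroid libraries, made by the authors with featureCounts 1.6.0 over Ensembl release 88 exons of GRCm38 without a strand option, per the file headers. GRCm39, StringTie 1.3.4d, HISAT2 2.0.4, cutadapt 1.9, edgeR and DESeq2 stand in the submitters' processing notes instead. Groups were taken from sample titles, and 0 value columns were left unused. No pair of libraries was identical, and replicates differed by more than sampling noise (chi-square per degree of freedom at least 13.4).

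Tests ran in R 4.3.3 with edgeR 4.0.16: TMM, filterByExpr at a minimum count of 10, robust glmQLFit and glmQLFTest, adjusted by Benjamini-Hochberg over all genes at 0.05. The FAD4T set was 1 fit of 24 libraries (18493 genes), the ageing set a fit of 6 (16283 genes), and WT males 4 to 6 against 1 to 3 a fit of all 30 (18799 genes). Fold changes use a prior count of 0.125. An SE was taken as the absolute log2 fold change over the root of the F statistic. CPM are TMM-scaled over all 30 libraries, and levels use log2(CPM + 1). Within-group relations were permuted 100000 times. The code was tested on simulated counts. DESeq2 1.42.0, other scalings and filters, left-out libraries and other fits were alternatives. Same-numbered libraries deviated together in 1 of 10 comparisons, FAD4T against WT in males of 8 months (r = 0.29, 0.32 and 0.40). No label pairs these mice and no chance level was set for r, so this does not establish a pairing.

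The members and all gene lists were chosen with earlier results of these data known. Named were all 10 members, up to 4 called genes of each pathway list per comparison by smallest p, and the 10 genes most like the members.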

Additional observations from a re-analysis of the deposited data

How the results depend on the processing

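Alternatives were tried on the counts of called members, the median r between members and the count of list relations past the threshold. Apart from fits that left out 1 library, 143 left the result the same and 13 moved it. The same meant within 1.5 times for called members, within 1 SD of the pairs' r for the median r, and an equal count for list relations. By comparison, DESeq2 called 1 member between 8 and 2 months in WT males (Jun), 1 between the sexes at 2 months (Fosb) and 5 in WT males 4 to 6 against 1 to 3. A fit of the compared groups alone called 1 in WT males of 8 against 2 months, 1 in WT males 4 to 6 against 1 to 3, and 0 in FAD4T males and females of 8 against 2 months. Without the 5 libraries of high thymocyte level it was 0 in those FAD4T comparisons. A fit of 3 WT male groups called 1 between the young sets (Zfp36). With WT males 4 to 6, or all 6, as the young males, 1 member was called in FAD4T males of 2 months (Jun, both lower). The log2 fold change of Ier2 was reversed at -0.298 against males 4 to 6 and was 0.014 against all 6. With WT males 1 to 3 in the ageing comparison, 1 was called (Ier2). Of the single log2 fold changes, 272 kept their direction and side of the threshold, 9 became weaker, 8 stronger and 1 reversed.

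Leaving out 1 library at a time gave 0 to 2 called members for FAD4T against WT in females of 2 months, and 0 to 0 in the other 3 FAD4T comparisons, their average and the 4 interactions. It gave 1 to 3 between 18 and 2 months, 0 to 5 between the young WT sets, 0 to 1 and 0 to 2 between 8 and 2 months in FAD4T males and females, and 0 to 0 in WT males, WT females and both sex comparisons. The median r between members stayed at 0.39 to 0.52, and the count of list relations past the threshold was 0 to 1 (the further early genes, adjusted p = 0.035, without 18-month male 1). With the replicate block the counts of called members did not change, and Ier2 kept its call between 8 and 2 months in FAD4T males (adjusted p = 0.0287) and females (0.0313). For 2 comparisons, 18 against 2 months and the young WT sets, no paired analysis was possible because their groups share no replicate numbers. Depth limits Fosb most, whose lowest library held 6 counts.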
